A study of Arabidopsis thaliana x Arabidopsis arenosa with 4 samples.

Results

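Kunitz-type protease inhibitors are small secreted or vacuolar proteins that block proteases, most often serine proteases such as trypsin, by offering an exposed loop that the protease binds as if it were a substrate. Plants make them in storage tissues and in response to wounding and insect feeding, and jasmonate, a hormone of the wound response, is a known inducer of many protease inhibitors. In fruits and seeds such inhibitors are thought to restrain proteases and to deter animals that eat the tissue.

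The 5 Kunitz-type genes described here were taken by gene code: AT1G73325, AT1G73330, AT1G73260, AT1G17860 and AT1G72290. AT1G73325 was chosen by its total RPKM, which was low against Allo733, so its comparison with Allo733 is a description and carries no test. Of the 5 genes, 4 were listed in at least 1 hybrid, among 16610 genes listed in all. AT1G73325, AT1G73260 and AT1G17860 were listed in every hybrid, AT1G72290 in the Ler hybrid only, and AT1G73330 in none. The lowest total in the allele tables was 2.00 RPKM (reads scaled by transcript length and library size), so a gene that is not listed may have been below that level.

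RNA came from siliques, the developing fruits with their seeds, 4 days after pollination. The groups were F1 interspecific hybrids of tetraploid Arabidopsis thaliana, of the ecotype C24, Ler or Col, with tetraploid Arabidopsis arenosa (C24XAa, LerXAa and ColXAa, called the C24, Ler and Col hybrids), and Allo733, an allotetraploid of the 2 species in generation F8 whose A. thaliana ecotype is given as Ler. All groups combined genomes of both species, though not necessarily in every tissue of the fruit. Each group had 1 library, so differences between groups were compared without replicates. The labels do not state which species was the seed parent. The fruit wall and seed coats are tissue of the seed parent. If the hybrid fruits were set by the cross itself, these tissues carried a single species' genome, whereas those of Allo733 carried both. In such whole-fruit RNA fewer cells of a type and less RNA per cell cannot be told apart.

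The tables listed 15477, 15935 and 15612 genes in hybrids of C24, Ler and Col, with a median gene at 11.7, 12.5 and 12.3 RPKM, and the number of reads behind these values is unknown. Of the markers of the fruit, 4 of 5 carpel genes were listed in every hybrid, with median totals between 32.3 and 34.4 RPKM. Of 3 transmitting tract genes 2 were listed, with median totals between 4.41 and 6.84 RPKM. Of 3 seed coat genes 1 was listed, of 3 endosperm genes 1, of 2 embryo genes 0, and of 3 pollen genes 3, the last with median totals between 2.99 and 4.03 RPKM.

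AT1G73325, annotated as a Kunitz family trypsin and protease inhibitor protein, was the most abundant of these genes in the C24 and Col hybrids, and of the 2 with a value in Allo733 it was the higher there. Its total was 52.0 RPKM in the C24 hybrid, 11.9 RPKM in the Ler hybrid, 31.6 RPKM in the Col hybrid and 611.1 RPKM in Allo733. Allo733 was thus far above every hybrid, and the Ler hybrid was the lowest. Among listed genes it stood at percentile 87.5 in the C24 hybrid, 48.3 in the Ler hybrid and 78.2 in the Col hybrid.

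**Figure D1:**
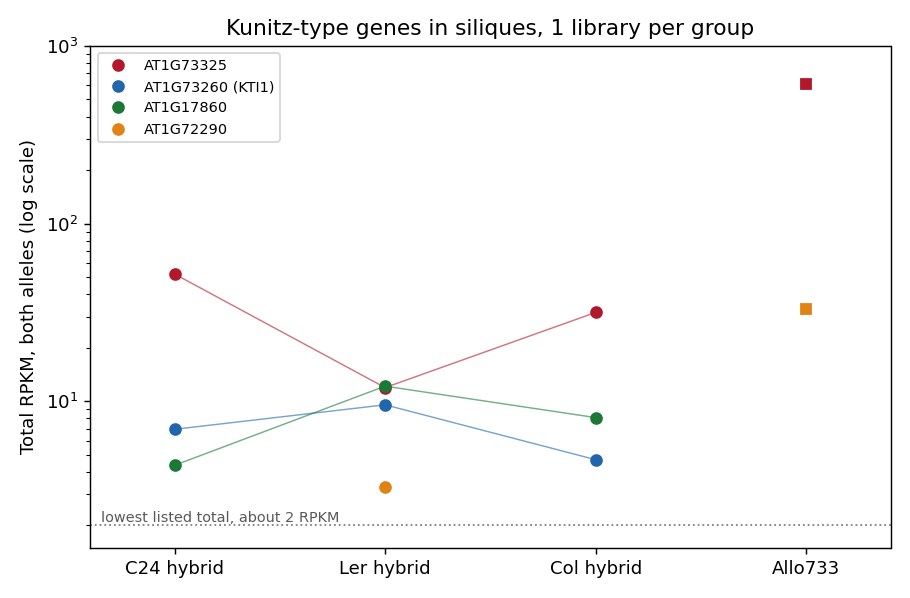
Total RPKM (log axis) of the Kunitz-type genes in each hybrid (circles) and in Allo733 (squares), 1 library per group; lines join the hybrids of a gene and the dotted line marks the lowest listed total. AT1G73325 lies at 611.1 RPKM in Allo733 and at 52.0 RPKM or less in the hybrids, and AT1G72290 at 33.1 RPKM in Allo733 and 3.30 RPKM in the Ler hybrid.

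The comparison of each hybrid with Allo733 sets a newly formed hybrid beside an established line that holds both genomes. The fruit tissue of the seed parent may differ in genotype as well, and these differences cannot be told apart. The deposited tables for it held only selected transcripts, of 1322, 809 and 791 genes for hybrids of C24, Ler and Col. Only 6.81%, 13.1% and 11.0% of these genes lay within 0.5 log2 units of equality, so the tables are no sample of all genes. All 3 tables carried the same Allo733 library. In Allo733 AT1G73325 ranked 81st, 74th and 69th by RPKM among the genes of the tables for hybrids of C24, Ler and Col.

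The C24 hybrid held 8.51% of the Allo733 level of AT1G73325, a difference of -3.55 on the log2 scale with 0.1 RPKM added to each value. The Ler hybrid held 1.95% (log2 difference -5.67), and the Col hybrid held 5.18% (log2 difference -4.27). From the lowest ratio upwards the gene was at place 14 in the table of the C24 hybrid, 2 in that of the Ler hybrid and 6 in that of the Col hybrid. AT1G73325 was thus near the bottom of each table, which is how it was chosen.

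AT1G72290, also annotated as a Kunitz family trypsin and protease inhibitor protein, appeared in the table of the Ler hybrid with 3.30 RPKM beside 33.1 RPKM in Allo733. The log2 difference was -3.29, and the hybrid held 9.95% of the Allo733 level. Its level in the Ler hybrid was low, at percentile 9.16 of listed genes. At least 2-fold lower values than in Allo733 were found for 1 of 1 Kunitz-type genes in the table of the C24 hybrid, where 31.4% of all genes in the table met this rule. They were found for 2 of 2 in that of the Ler hybrid (28.1% of the table) and 1 of 1 in that of the Col hybrid (29.1%). At least 2-fold higher values were found for 0 Kunitz-type genes, against 31.7%, 29.5% and 31.9% of the genes in the tables of the C24, Ler and Col hybrids. AT1G73325, chosen by its low value against Allo733, is among the genes counted in every table, so these counts are a description and no result about the family. AT1G73260 and AT1G17860 were in none of these tables, so their Allo733 levels were not analysed here.

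**Figure D2:**
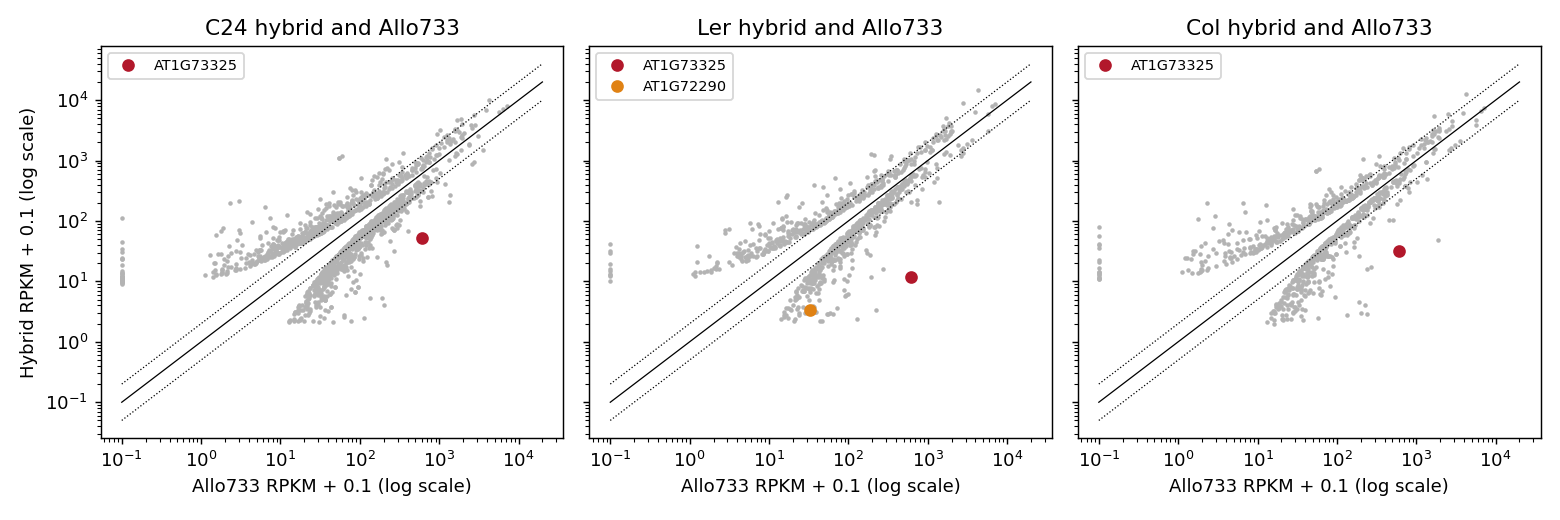
RPKM of each hybrid against RPKM of Allo733 (log axes, 0.1 added), 1 grey point per deposited transcript, with lines at equality and at a 2-fold difference. AT1G73325 (611.1 RPKM in Allo733) lies among the lowest ratios in each panel, though not the lowest, and AT1G72290 (33.1 RPKM) lies among the lower genes of the Ler panel.

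Among the hybrids, AT1G73325 was the Kunitz-type gene that varied most. Its highest total was 4.36 times its lowest, against 1.43 times for the median of 14687 genes listed in all hybrids, and 98.2% of those genes had a smaller ratio. After each hybrid was centred on its median gene, the Ler hybrid lay 2.27 log2 units below the C24 hybrid and 1.46 below the Col hybrid. The C24 hybrid lay 0.81 above the Col hybrid. The A. thaliana allele made up nearly all of each total, so its values had the same spread, with 52.0 RPKM in the C24 hybrid, 11.9 in the Ler hybrid and 31.6 in the Col hybrid.

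A rule of size was used for totals, at least 2-fold above or below both other hybrids after centring, because 1 library per hybrid allows no test. Of the 3 genes listed in all hybrids, 1, AT1G73325, met it, as lower in the Ler hybrid, where 1.39% of all genes did. No Kunitz-type gene met it in any other direction, in which small shares of all genes did (C24 hybrid 2.1% above and 1.09% below, Ler hybrid 1.13% above, Col hybrid 0.606% above and 0.926% below). Under a 4-fold rule 0 Kunitz-type genes differed, but the share of all genes that did was not counted. The totals of AT1G73325 were among the values it was chosen by, so these counts are a description.

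AT1G73260 is KTI1, a trypsin inhibitor that is annotated as modulating programmed cell death during pathogen attack. Its total was 6.95 RPKM in the C24 hybrid, 9.55 in the Ler hybrid and 4.69 in the Col hybrid. The order of the hybrids therefore differed from that of AT1G73325, with the Ler hybrid highest. The Col hybrid lay 0.95 log2 units below the Ler hybrid after centring, short of the 2-fold rule.

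AT1G17860, annotated only as a family member, had 4.36 RPKM in the C24 hybrid, 12.2 in the Ler hybrid and 8.09 in the Col hybrid. The Ler hybrid was again highest and the C24 hybrid lowest. The C24 hybrid lay 1.30 log2 units below the Ler hybrid and 0.78 below the Col hybrid after centring. In the Ler hybrid AT1G17860 and AT1G73325 were therefore almost level, at 12.2 and 11.9 RPKM, whereas in the C24 hybrid AT1G73325 was far the higher. AT1G72290, at 3.30 RPKM in the Ler hybrid, was the lowest of the 4 listed genes there.

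On chromosome 1 of the TAIR 10.1 annotation AT1G73325 and AT1G73330 follow each other with 0 annotated genes between them. AT1G73330 is DR4, whose transcript is annotated as lost from drying roots. DR4 was not listed in any hybrid while its neighbour AT1G73325 reached 52.0 RPKM. KTI1 is separated from AT1G73325 by 6 annotated genes. Both other members of the family that were looked for, AT3G04320 and AT3G04330, were not listed in any hybrid.

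Which parental genome supplied the RNA was read from the allele values, where T was taken as A. thaliana and A as A. arenosa. The A. arenosa share is given as a percentage of the summed allele RPKM. For the median gene it was 5.45% in the C24 hybrid, 3.87% in the Ler hybrid and 4.92% in the Col hybrid. No Kunitz-type gene had an A. arenosa share above 8.98% in any hybrid. Among the markers, the pollen genes VGD1 and VGDH1 had shares between 72.2% and 86.8%, and the pollen gene ANX1 between 3.57% and 14.5%. The seed coat gene TT8 had 26.5%, 31.4% and 68.1% in hybrids of C24, Ler and Col, and the carpel genes had medians of 3.84%, 4.21% and 32.0%. Tissue of the seed parent and use of the alleles cannot be told apart in these shares.

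For AT1G73325 the A. arenosa RPKM was listed at 0 in the C24 hybrid, at 0.000262 in the Ler hybrid and at 0.0676 in the Col hybrid. Its A. arenosa shares were 0%, 0.00220% and 0.214% in the same order. The A. arenosa value thus stayed below 0.1 RPKM in all 3 hybrids. A value below 0.1 RPKM was not rare in one hybrid, since 12.7%, 16.2% and 14.98% of all genes had one in hybrids of C24, Ler and Col, and 2.50% of genes had one in all 3.

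The allelic ratio, A. arenosa over A. thaliana RPKM with 0.1 RPKM added to each, was put on the log2 scale, centred on the median gene of each hybrid and tested over the 3 hybrids. AT1G73325 lay at -5.14 in the C24 hybrid, -2.53 in the Ler hybrid and -3.49 in the Col hybrid, below the median gene in 3 of 3. Its mean was -3.72 ± 0.69 (SE, n = 3 hybrids, adjusted p = 0.0412 by limma). Because the A. arenosa RPKM was below the added 0.1 RPKM in every hybrid, the size and spread of this value come mostly from the A. thaliana level and the added amount. The A. thaliana level is nearly the total, which was among the values the gene was chosen by, so this call is a description. Of 367 genes with A. arenosa values below 0.1 RPKM in all hybrids, limma called 112 below the typical ratio. With any 1 hybrid left out the adjusted p by limma rose to between 0.0899 and 0.182, and 0 genes of all passed in either direction, with 3481 to 4449 at an unadjusted p below 0.05.

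KTI1 had A. arenosa RPKM of 0.0171 in the C24 hybrid, 0.858 in the Ler hybrid and a value listed at 0 in the Col hybrid. Its shares were 0.246%, 8.98% and 0%. Only the Ler hybrid held an appreciable A. arenosa part, above that of 81.5% of genes there. The mean log2 ratio, -0.78 ± 0.70 (SE, n = 3 hybrids), did not pass (adjusted p = 0.472 by limma) and was 0.27 with 1 RPKM added in place of 0.1. Without the Ler hybrid it was -1.76, and without the C24 or Col hybrid -0.16 or -0.42, none of which passed by limma.

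AT1G17860 had A. arenosa RPKM of 0.249 in the C24 hybrid, 0.143 in the Ler hybrid and 0.531 in the Col hybrid. Its shares were 5.71%, 1.17% and 6.56% (4.48% ± 2.90, SD, n = 3 hybrids). In the C24 and Col hybrids it was near the median gene, and in the Ler hybrid below it. The mean log2 ratio was -0.17 ± 0.46 (SE, n = 3 hybrids, adjusted p = 0.819 by limma), and 0.21 with 1 RPKM added. AT1G72290 had an A. arenosa RPKM of 0.000689 in the Ler hybrid, a share of 0.0209%.

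By limma with Benjamini-Hochberg adjustment over all genes, 1 of the 3 Kunitz-type genes with values in all hybrids lay below the typical ratio and 0 above it, with 1 of the 3 at an unadjusted p below 0.05. Of all 14660 genes tested, 3.36% lay below and 7.97% above. The Kunitz-type gene below was AT1G73325, whose ratio rests mostly on its total and the added amount.

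**Figure D3:**
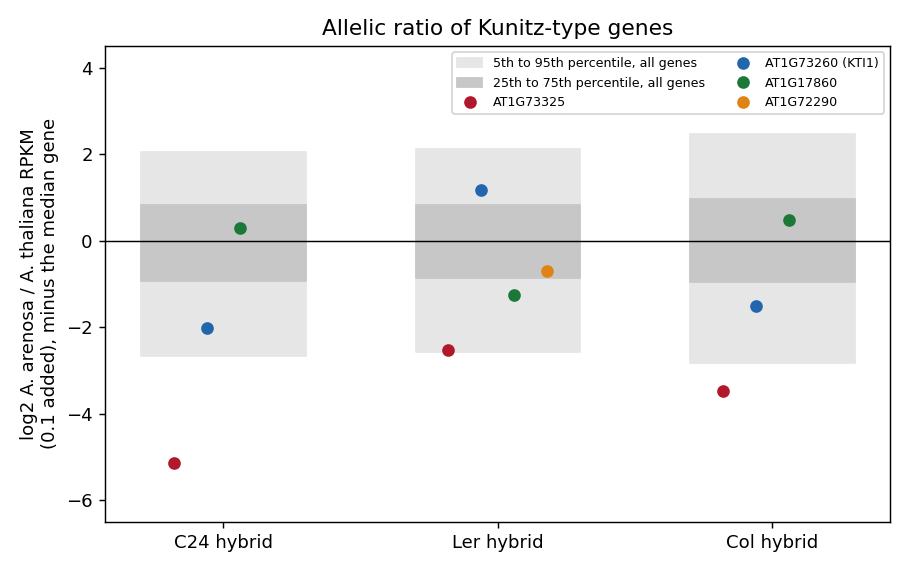
Log2 allelic ratio, A. arenosa over A. thaliana RPKM (0.1 added to each), minus that of the median gene, for the Kunitz-type genes in each hybrid (1 library each), with grey bands for all genes. AT1G73325 lies lowest in each hybrid, between -5.14 and -2.53, while AT1G73260 and AT1G17860 lie on both sides of 0.

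Other families of protease inhibitors were set beside them. They are the serpins and the potato inhibitor I type, which block serine proteases, the mustard-type trypsin inhibitors, which are small disulfide-rich proteins, and the cystatins, which block papain-like cysteine proteases. Of 27 such genes 12 were listed in all hybrids. Their median total was 42.9, 48.99 and 43.8 RPKM in hybrids of C24, Ler and Col. The Kunitz-type genes had mean totals over the hybrids of 31.9 ± 20.0 RPKM (AT1G73325), 7.07 ± 2.43 (KTI1) and 8.21 ± 3.90 (AT1G17860; SD, n = 3 hybrids).

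A. arenosa shares in this wider group had medians of 1.47%, 1.82% and 0.610% over the 12 genes in hybrids of C24, Ler and Col, below that of the median gene, but single genes were higher. The cystatin genes AT4G16500, AT5G47550 and AT5G05110 had shares of 17.9%, 17.7% and 13.0% in the Col hybrid, and the median of the 6 cystatins there was 8.29%, above the 4.92% of the median gene. By limma 4 of the 12 lay below the typical ratio and 0 above, where 3.36% of all genes lay below and 7.97% above. The serpin gene SERPIN1 had shares of 1.38%, 1.26% and 0.796% (log2 ratio -1.94 ± 0.42, SE, n = 3 hybrids, adjusted p = 0.0486 by limma), and the cystatin gene CYSB had 0.924%, 0.622% and 0.424% (-2.93 ± 0.48, adjusted p = 0.0383 by limma). For the mustard-type gene TI1 every hybrid had its A. arenosa value listed at 0, and for the potato inhibitor I gene AT2G38870 at 0 in the C24 and Col hybrids, so that, as for AT1G73325, their ratios depend on the amount added.

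In total RPKM 3 of the 4 mustard-type genes listed in all hybrids had the order of AT1G17860, lowest in the C24 hybrid and highest in the Ler hybrid. The median gene had this order too (11.7 RPKM in the C24 hybrid, 12.3 in the Col hybrid and 12.5 in the Ler hybrid). The share of all genes with this order was not counted. TI1 had 12.4 RPKM in the C24 hybrid, 37.5 in the Ler hybrid and 22.0 in the Col hybrid. TI2 had 2.02, 15.9 and 5.81 RPKM in that order and met the 2-fold rule as lower in the C24 hybrid and higher in the Ler hybrid. Of all genes 1.09% met it as lower in the C24 hybrid and 1.13% as higher in the Ler hybrid. AT2G43535 had 4.94, 22.1 and 17.1 RPKM and met it as lower in the C24 hybrid, and its A. arenosa share there was 59.1%, against 2.58% and 0% in the Ler and Col hybrids. AT2G43550, the most abundant of the inhibitors, had 288.7, 315.7 and 239.1 RPKM. Its A. arenosa share was 15.6% in the C24 hybrid, 0.168% in the Ler hybrid and 0% in the Col hybrid. These genes are related and have neighbouring codes, and whether reads were shared between them was not tested.

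Among the cystatins, CYS1 had 143.7, 147.2 and 146.4 RPKM in hybrids of C24, Ler and Col, AT4G16500 had 80.2, 85.97 and 112.4 RPKM, and CYSB had 78.4, 81.6 and 81.8 RPKM. AT5G47550 had 136.02 RPKM in the C24 hybrid, 103.7 in the Ler hybrid and 224.2 in the Col hybrid. None of the 6 cystatin genes listed in all hybrids met the 2-fold rule, which between 0.606% and 2.1% of all genes met in any single direction.

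Against Allo733 the other inhibitors went in both directions. TI2 had 30.8 RPKM in Allo733, with log2 differences of -3.86 in the C24 hybrid and -2.38 in the Col hybrid. AT2G43550 had 117.96 RPKM in Allo733 and was higher in every hybrid, with log2 differences of 1.29, 1.42 and 1.02 in hybrids of C24, Ler and Col. TI1 was higher in the Ler hybrid (1.64), and the cystatin gene AT5G47550 was higher in the Col hybrid (1.71). These values share 1 Allo733 library.

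**Figure D4:**
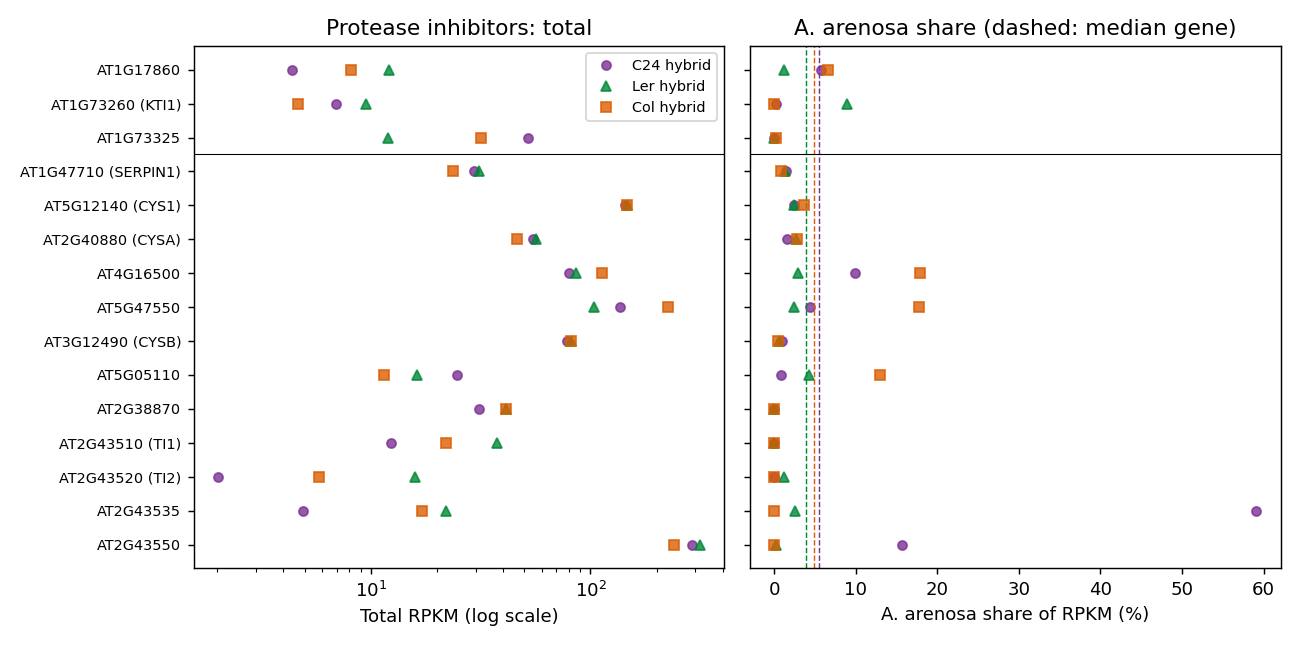
Total RPKM (left, log axis) and A. arenosa share in percent (right) of 3 Kunitz-type genes, above the line, and 12 other protease inhibitor genes in the C24 hybrid (circles), Ler hybrid (triangles) and Col hybrid (squares), 1 library each. Dashed lines mark the share of the median gene (5.45%, 3.87% and 4.92%), above the medians of the 12 other inhibitors (1.47%, 1.82% and 0.610%).

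Papain-like cysteine proteases, the enzymes that cystatins and some Kunitz-type inhibitors act on, were the next list. Of 30 genes 19 were listed in all hybrids. RD21A, a protease with a granulin domain, had 311.7, 336.3 and 226.5 RPKM in hybrids of C24, Ler and Col, and RD19 had 213.8, 298.3 and 211.9 RPKM. AT4G16190 had 272.03, 199.2 and 132.8 RPKM, and RD21B had 69.3, 99.1 and 112.4 RPKM. The 2-fold rule was met by CEP2, with 86.5 RPKM in the Ler hybrid against 12.3 and 10.4 in the C24 and Col hybrids. As higher in the Ler hybrid, 1.13% of all genes met it. AT1G02300 met it as lower in the Col hybrid, where 0.926% of all genes did, and AT3G43960 as higher there, where 0.606% did. By limma 1 of the 19, AT3G43960, lay above the typical allelic ratio (log2 ratio 1.83 ± 0.35, SE, n = 3 hybrids, adjusted p = 0.0429) and 1, XCP2, below it (-5.27 ± 0.64, adjusted p = 0.0383, with the A. arenosa RPKM listed at 0 in each hybrid). Of all genes 7.97% lay above and 3.36% below, so these counts are no result about the proteases.

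Genes of jasmonate synthesis and response were also listed. Of 11 genes 7 were listed in all hybrids, and 3 of these, the response genes VSP1, VSP2 and JAZ5, met the 2-fold rule as lower in the Ler hybrid, as AT1G73325 did, where 1.39% of all genes met it. VSP1, a vegetative storage protein gene, had 3910 RPKM in the C24 hybrid, 1633 in the Ler hybrid and 3692 in the Col hybrid, and VSP2 had 3157, 612.5 and 1347 RPKM. JAZ5, a repressor gene of jasmonate signalling that jasmonate itself induces, had 17.7, 6.32 and 12.3 RPKM. Its Ler and Col values were less than 2-fold apart before centring, so JAZ5 met the rule narrowly. LOX2, a lipoxygenase gene of jasmonate synthesis, had 2542, 1904 and 1778 RPKM, and the repressor gene JAZ1 had 45.04, 22.4 and 24.5 RPKM. For these 2 genes the C24 hybrid was the highest, and the Ler and Col hybrids differed by less than 2-fold. AOS, an allene oxide synthase gene of jasmonate synthesis, had 15.2, 16.1 and 19.3 RPKM. VSP2 and OPR3, an enzyme gene of jasmonate synthesis with 19.8, 9.61 and 10.1 RPKM, met the rule as higher in the C24 hybrid, where 2.1% of all genes did. For OPR3 the C24 and Col values were less than 2-fold apart before centring. No synthesis gene met the rule as lower in the Ler hybrid. Of these genes 3 were in all tables with Allo733. The log2 differences of VSP1 and VSP2 were 0.47 and 1.61 in the C24 hybrid, -0.79 and -0.76 in the Ler hybrid and 0.39 and 0.38 in the Col hybrid. LOX2 was below Allo733 in every hybrid, by less than 2-fold, with log2 differences of -0.29, -0.70 and -0.80 in hybrids of C24, Ler and Col. The part of these genes in the level of AT1G73325 was not tested.

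The genes most like each Kunitz-type gene were sought over 6 values, the log2 RPKM of both alleles in the 3 hybrids less the gene's own mean, among 14659 other genes. Nearest to AT1G73325 was RGF9, a root meristem growth factor gene, with 39.3, 5.95 and 21.5 RPKM in hybrids of C24, Ler and Col (distance 0.893 log2 units, against 5.06 for the median gene). AT3G56290 (distance 0.995) and APL4, a glucose-1-phosphate adenylyltransferase gene (1.13), came next. Each of these had A. arenosa shares of 0.101% or less in every hybrid. Nearest to KTI1 were AT3G52480 (0.309) and AT5G41270 (0.651), and nearest to AT1G17860 were AT5G17270 (0.314) and AT1G28100 (0.371). With so few values many genes have a like pattern by number alone.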

How the data were processed

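Siliques gave poly(A) RNA that was sequenced with an Illumina kit, per the labels' protocols, in 1 library for each of 4 groups. The authors deposited RPKM values of transcripts, as the file headers say: one table per hybrid with its total and both alleles, and one that sets chosen transcripts beside Allo733. The build named in the submitters' processing notes is TAIR 9. Mapper, annotation, allele assignment and the rule of choice are not given in the sources used. RPKM divides by the library total, so abundant transcripts shift all others, and a mapping preference for A. thaliana would lower every A. arenosa share.

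In the table of the Col hybrid, repeated header lines (4) were dropped, and 41 transcripts with both alleles at 0 were left out of allele comparisons. Each gene was represented by 1 transcript, by the number of hybrids listing it and then by mean RPKM. Gene names came from the RefSeq TAIR 10.1 annotation (16522 of 16610 codes matched), without coordinates.

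Log2 values had 0.1 RPKM added, which understates changes of low genes. Totals were centred on the median of 14687 genes; relative to the Ler hybrid the C24 and Col medians lay at -0.16 and -0.06 log2 units. Allelic ratios (minimum mean total 1 RPKM) were fitted with an intercept-only limma 3.58.1 model with trend in R 4.3.3, two-sided, adjusted by Benjamini-Hochberg over all genes at 0.05; the spread holds ecotype and library together. The fit was tested on simulated data. All other comparisons are rules of size. Python 3.11.15, numpy 2.4.6, pandas 2.3.3 and matplotlib 3.10.9 were used.

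The members and lists were chosen with earlier results of these data known. Genes named were all members and listed family members, up to 4 genes of each other list by level and up to 4 past a rule, and the nearest 3 genes to AT1G73325 and 2 to each other member. Alternatives were a pseudocount of 1 RPKM, a minimum of 5 RPKM or none, no centring, a 4-fold rule, the mean over transcripts, rescaled shares and leaving out each hybrid.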

Additional observations from a re-analysis of the deposited data

Results flagged for a closer look

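The allelic ratio of 2 Kunitz-type genes lay on opposite sides of the median gene in different hybrids, each hybrid being 1 library, and the difference between hybrids was not tested. For AT1G73260 (KTI1) the centred log2 allelic ratio (A. arenosa over A. thaliana) lay at -2.02 in the C24 hybrid and -1.51 in the Col hybrid but at 1.18 in the Ler hybrid, relative to the median gene. For AT1G17860 it lay at 0.30 in the C24 hybrid and 0.47 in the Col hybrid but at -1.26 in the Ler hybrid. With 0.1 RPKM added, the Ler hybrid was thus the one that differed for both genes, in opposite directions. The A. arenosa RPKM of KTI1 was below that added amount in the C24 hybrid (0.0171) and the Col hybrid (0). That of AT1G17860 was near it in the Ler hybrid (0.143). These ratios therefore depend on the added amount, and with 1 RPKM added the mean of each gene changed sign (0.27 for KTI1 and 0.21 for AT1G17860).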

How the results depend on the processing

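The log2 allelic ratio of AT1G73325 stayed negative under every alternative run for it, from -7.83 with no centring to -1.90 with a pseudocount of 1 RPKM. It passed by limma under all of them except those that left out a hybrid, where it lay between -4.31 and -3.01. Using no minimum could change nothing, because every listed total was at least 2.00 RPKM, above the main minimum of 1 RPKM. As the A. arenosa RPKM of AT1G73325 was below the added 0.1 RPKM in every hybrid, its ratio follows its total level, and passing is a description. With any hybrid left out, 0 Kunitz-type genes passed by limma, and 0 of all genes above and 0 below (3481 to 4449 at an unadjusted p below 0.05); 2 libraries leave 1 residual degree of freedom. With no centring, which asks about equal alleles, limma called 3 Kunitz-type genes, and 6 genes above and 14463 below of all; with a pseudocount of 1 RPKM it called 3610 above and 3502 below of all genes. The mean ratio changed sign with a pseudocount of 1 RPKM for AT1G73260 (0.27) and AT1G17860 (0.21), and without the C24, Ler or Col hybrid that of AT1G17860 lay between -0.48 and 0.38; none of these passed by limma. Under a 4-fold rule for totals 0 Kunitz-type genes differed between hybrids, without a count of all genes beside it. Differences from Allo733 kept their direction under the alternatives run. No paired analysis was possible because each group had 1 library. Depth is unknown, so no counting interval or limit is given for values at or near 0.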
